A study of Mus musculus with 8 samples.

Results

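RNA polymerase II, TBP with the TFIID subunits, and the general factors TFIIA, TFIIB, TFIIE, TFIIF and TFIIH were followed in mouse kidney epithelial cells given a CDK7 inhibitor. Members were taken by symbol, with a rule that uses no measured value: Polr2 plus a letter, Gtf2 plus a, b, e, f or h, Taf plus a digit (without the Taf1a to Taf1d subunits of the polymerase I factor), Tbp, Ercc2 and Ercc3. This gave 49 of the 18631 genes listed. They are 12 polymerase II subunits, the polymerase-binding protein Polr2m, 8 genes of TFIIA, TFIIB, TFIIE and TFIIF, 7 of the TFIIH core, Tbp, 13 TFIID subunits (TAFs), 4 TAF paralogues, 2 TAFs of the coactivator SAGA, and Taf15. Poly(A) RNA had been sequenced from a line heterozygous for Pkd1 (Pkd1+/-, labelled PH) and a line null for it (Pkd1-/-, labelled PN). Pkd1, which encodes polycystin-1, is the gene most often mutated in dominant polycystic kidney disease. Each genotype was represented by 1 line, so the genotype cannot be told apart from other differences between the lines. Each line received the solvent DMSO or 50 nM THZ1, a covalent CDK7 inhibitor, over 6 h. Each of these 4 combinations of line and agent has 2 libraries. Cells of all 4 groups had been grown in DMEM-F12 with 3% FBS, insulin-transferrin-selenium, interferon gamma, T3 and nystatin. The labels do not say whether replicates were separate cultures, so the spread behind each p-value may be only technical.

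At a protein-coding promoter TFIID, built of TBP and its associated factors, recognises core promoter DNA. TFIIA and TFIIB join it, polymerase II arrives with TFIIF, and TFIIE then brings TFIIH, whose translocase Ercc3 opens the DNA. The kinase part of TFIIH, CDK7 with cyclin H and MAT1, phosphorylates the repeated C-terminal tail of Polr2a, the largest polymerase subunit, and THZ1 binds that kinase covalently. Many TAFs pair through histone folds (Taf6 with Taf9, Taf4 with Taf12, Taf11 with Taf13, Taf3 or Taf8 with Taf10), and Taf9, Taf10 and Taf12 also serve SAGA.

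The values are FPKM, fragments per length of transcript scaled to the mapped fragments of the library, so levels can be compared between genes. The depth estimated from the smallest steps of the values was 17.6 to 18.3 M (mega) fragments per library, and 14007 to 15439 genes were above 0. Replicates correlated at r = 0.997 to 0.998 across genes on the log2(FPKM + 1) scale, where genes are not independent. Null DMSO replicate 1 and null THZ1 replicate 2 held more genes at or below 0.2 FPKM but above 0 (3378 and 3129) than the other 6 libraries (2230 to 2586). The median gene stood at 2.27 and 2.45 FPKM in the null THZ1 libraries and at 3.55 to 3.76 FPKM in the other 6. Pkd1 was 4.58 and 5.30 FPKM in heterozygous and 1.69 and 1.32 FPKM in null DMSO cells, a log2 difference of -1.25 ± 0.10 (SE, adjusted p = 1.99e-07). The part of the gene that the null allele lacks is not given, so its remaining reads do not check the label further. Of 10 kidney epithelial markers 7 averaged at least 1 FPKM, Krt8 and Krt18 reaching 339 and 318, while Cdh1 (0.10 to 0.42), Epcam (0.05 to 0.24) and Emx1 (0 to 0.05) were at or near 0. The summed epithelial markers ranged from 1072 to 1162 FPKM in heterozygous DMSO cells, from 1090 to 1124 under THZ1, from 864 to 873 in null DMSO cells and from 787 to 792 under THZ1. The 6 fibroblast markers summed to 3.77 to 3.84 FPKM in heterozygous DMSO cells, 3.84 to 4.24 under THZ1, 17.01 to 18.35 in null DMSO cells and 24.5 to 24.9 under THZ1. Nearly all of that was Col1a1, and Col3a1 (0.05 to 0.10) and Pdgfra (0.01 to 0.14) were near 0. Of the markers of other cells, Umod was 1.62 to 2.25 FPKM in heterozygous libraries and 0 in null ones, and Lrp2 0.45 to 0.51 and 4.45 to 5.14. Cd68 went from 2.09 and 1.72 to 4.82 and 3.94 under THZ1 in null cells. Other markers of the same cells did not all follow. The proximal tubule marker Slc5a2 was 0.29 to 0.61 FPKM in heterozygous and 0 to 0.14 in null libraries. The immune marker Ptprc went from 0.05 and 0.06 to 0.03 and 0.01 under THZ1 in null cells, and Adgre1 and Cd3e were 0. Slc34a1 and Slc12a1 reached at most 0.02. Markers summed to at most 1.16 FPKM for collecting duct principal cells and 0.15 for endothelium. The part of these markers in the results below was not tested, and fewer cells of a type and less RNA per cell cannot be told apart in bulk samples. The strand handling of the counts is not given. Exons of Taf9 share 73.8% of their bases with Ak6 on the same strand, so its values are uncertain. The same holds for Taf10 (45.9%, Ilk), Polr2i (26.8%, Tbcb), Taf6 (26.5%, Ap4m1), Ercc2 (24.6%, Gm26852, and 17.8%, Klc3), Tbp (19.0%, Pdcd2) and Polr2c (18.1%, Dok4), whose exons overlap genes on the other strand. Such overlaps of other members were smaller, at most 15.9% (Polr2j with Lrwd1).

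Levels per length of the subunits of a complex were uneven in heterozygous DMSO cells. Polr2g, Polr2f and Polr2j, at means of 97.9, 97.5 and 96.0 FPKM, led the order and did not differ beyond their spread. Polr2i, which helps start-site choice and proofreading, was the lowest at 22.6 and 25.2 FPKM, close to the stalk subunit Polr2d at 27.8 and 27.1. Polr2m, which binds the polymerase and competes with TFIIF, was above every subunit at 127 and 132 FPKM. TFIID was far less even: Taf10 (67.8 and 71.1 FPKM) and Taf9 (63.2 and 63.1) led it, the scaffold Taf1 stood at 9.35 and 7.96, and Taf7, the partner of Taf1, at 2.0 and 1.84. The TAFs shared with SAGA were therefore not uniformly the highest, since Taf12 stood at 15.99 and 17.4 FPKM. Tbp was present at 13.8 and 14.5 FPKM. Taf15, an RNA-binding protein that is found with some TFIID, was at 85.1 and 88.0 FPKM. Another 4 genes were at or near 0 and were not tested: Taf7l was listed at 0 in all 8 libraries, Gtf2a1l ranged from 0 to 0.04 FPKM, Taf7l2 from 0 to 0.03 and Taf9b from 0 to 0.24. The other 45 passed the filter of a mean of at least 1 FPKM.

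**Figure D1:**
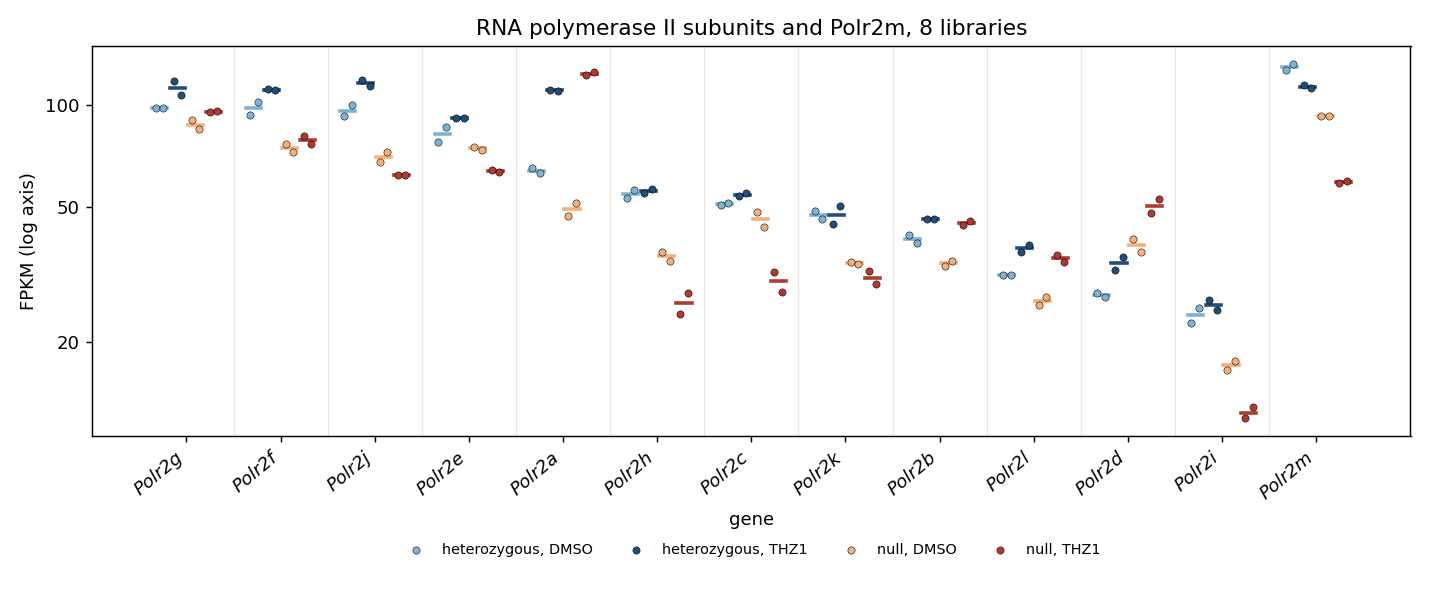
FPKM of the 12 polymerase II subunits and Polr2m on a log axis, with a point for each of the 2 libraries of a group and a bar for their mean. Polr2a reaches 122 and 125 FPKM in null cells under THZ1, above all other groups, while Polr2c, Polr2h, Polr2i and Polr2m are lowest in that group.

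Null and heterozygous cells were compared under DMSO to see how the machinery differed before the drug. Of the 45 tested genes 34 differed, 7 being higher and 27 lower in null cells at an adjusted p below 0.05 (limma on log2(FPKM + 1), Benjamini-Hochberg over 10731 genes), where 70.0% of all tested genes were called, 29.0% higher and 41.0% lower. The median difference of the 45 genes was -0.23 on the log2 scale, beside -0.07 for all tested genes. Of the 12 polymerase subunits 10 were lower, Polr2d was higher, and Polr2c did not pass (adjusted p = 0.0558). All 5 subunits that polymerase II shares with polymerases I and III (Polr2e, Polr2f, Polr2h, Polr2k and Polr2l) were among the lower ones, but the call for Polr2e was lost with any of 3 rescalings of the libraries.

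The largest decrease from heterozygous to null DMSO cells was that of Taf15 (chromosome 11, 83473073 to 83506743 on GRCm38.p6). It stood at 85.1 and 88.0 FPKM in heterozygous and 42.6 and 45.4 FPKM in null libraries. The log2 difference was -0.96 ± 0.045 (SE, adjusted p = 1.28e-09). Gtf2a2 (chromosome 9, 70012548 to 70022866), the small subunit of TFIIA, which steadies TBP on DNA, was 45.5 and 42.0 against 29.4 and 27.1 FPKM (-0.61 ± 0.053, adjusted p = 4.00e-07). Polr2h (chromosome 16, 20717826 to 20722272), a subunit common to the polymerases, was 53.1 and 56.2 against 36.9 and 34.7 FPKM (-0.60 ± 0.062, adjusted p = 2.21e-06). With a pseudocount of 0.1 the decrease of Taf5 (-0.71) was larger than those of Gtf2a2 and Polr2h. Both TFIIA genes and both TFIIE genes were lower in the null line, as was Gtf2f2, the smaller TFIIF subunit, whereas Gtf2f1, the larger one, was slightly higher (0.13 ± 0.049). The calls of Gtf2f1 and Taf7 as higher, and 6 of the 27 lower calls, were lost under at least 1 alternative.

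The 7 genes higher in null DMSO cells were Ercc3 and Gtf2h1 of TFIIH, the stalk subunit Polr2d, Gtf2f1, Taf7, Taf13 and Taf4b, whereas Polr2g, the other stalk subunit, was lower (-0.16 ± 0.048). Ercc3, the translocase of TFIIH, was 20.3 and 20.1 FPKM in heterozygous and 32.3 and 29.6 FPKM in null libraries (0.59 ± 0.055, adjusted p = 7.42e-07). Polr2d was 27.8 and 27.1 against 40.2 and 36.7 FPKM (0.47 ± 0.061, adjusted p = 1.68e-05). Gtf2h1 (chromosome 7, 46796094 to 46823800), the TFIIH core subunit that meets TFIIE, was 18.2 and 17.1 against 26.1 and 23.5 FPKM (0.47 ± 0.059, adjusted p = 1.23e-05). Ercc2, the other TFIIH helicase, went the other way, so that its level relative to Ercc3 was 0.499 and 0.524 in heterozygous and 0.246 and 0.299 in null DMSO libraries. Polr2a was 64.9 and 63.0 against 47.0 and 51.2 FPKM (-0.38 ± 0.046, adjusted p = 9.57e-06), and Tbp, at 13.8 and 14.5 against 14.4 and 13.6 FPKM, did not differ by the test (-0.01 ± 0.066). Without null DMSO replicate 1 the counts were 6 higher and 27 lower.

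Promoters of 6 genes are shown because these genes had the 3 largest increases under THZ1 in heterozygous cells (Polr2a, Taf13, Gtf2h5) or the 3 largest decreases in null cells (Gtf2h3, Taf6, Gtf2h4) on the log2(FPKM + 1) scale. With a pseudocount of 0.1 the decrease of Taf7 in null cells (-1.04) was larger than that of Gtf2h4 (-0.94). The sequences are RefSeq's for GRCm38.p6 and run 5′ to 3′ on the gene's strand from 250 bases before to 50 after the start site. Capitals mark exact matches to TATAAA (the best-known core promoter box), CCAAT (the letters NF-Y binds) or GGGCGG (those Sp1 binds) on either strand, which share no bases here. Of the 49 genes 41 had an entry, and for Gtf2h5 and Taf6 the entry holds 1 of 2 starts. The windows are chr11:69758584-69758883 on the minus strand for Polr2a, chr3:108571449-108571748 on the plus strand for Taf13, chr17:6079578-6079877 on the plus strand for Gtf2h5, chr5:124578898-124579197 on the plus strand for Gtf2h3, chr5:138187177-138187476 on the minus strand for Taf6 and chr17:35673694-35673993 on the minus strand for Gtf2h4.
Polr2a: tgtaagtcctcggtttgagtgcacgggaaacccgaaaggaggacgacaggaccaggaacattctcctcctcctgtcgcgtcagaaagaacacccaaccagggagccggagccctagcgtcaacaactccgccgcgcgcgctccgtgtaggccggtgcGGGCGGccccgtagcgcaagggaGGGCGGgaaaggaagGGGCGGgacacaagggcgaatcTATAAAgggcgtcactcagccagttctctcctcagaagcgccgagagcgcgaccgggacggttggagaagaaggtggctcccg
Taf13: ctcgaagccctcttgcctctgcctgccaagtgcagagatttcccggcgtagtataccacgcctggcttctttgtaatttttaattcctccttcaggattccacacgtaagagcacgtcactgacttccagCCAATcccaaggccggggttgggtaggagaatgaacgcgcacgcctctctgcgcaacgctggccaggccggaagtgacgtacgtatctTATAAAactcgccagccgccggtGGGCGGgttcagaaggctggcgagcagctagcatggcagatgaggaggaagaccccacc
Gtf2h5: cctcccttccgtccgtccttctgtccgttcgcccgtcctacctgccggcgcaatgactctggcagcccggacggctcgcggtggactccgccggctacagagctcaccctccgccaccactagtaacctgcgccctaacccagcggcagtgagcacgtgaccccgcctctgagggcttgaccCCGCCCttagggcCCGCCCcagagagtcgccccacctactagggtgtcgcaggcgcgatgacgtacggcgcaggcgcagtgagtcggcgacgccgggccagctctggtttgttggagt
Gtf2h3: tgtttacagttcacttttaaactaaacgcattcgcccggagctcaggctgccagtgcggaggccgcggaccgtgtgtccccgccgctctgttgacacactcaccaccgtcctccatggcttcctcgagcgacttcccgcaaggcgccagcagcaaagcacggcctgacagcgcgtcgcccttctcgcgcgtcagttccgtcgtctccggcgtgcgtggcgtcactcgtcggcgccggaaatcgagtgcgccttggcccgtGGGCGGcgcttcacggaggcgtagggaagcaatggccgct
Taf6: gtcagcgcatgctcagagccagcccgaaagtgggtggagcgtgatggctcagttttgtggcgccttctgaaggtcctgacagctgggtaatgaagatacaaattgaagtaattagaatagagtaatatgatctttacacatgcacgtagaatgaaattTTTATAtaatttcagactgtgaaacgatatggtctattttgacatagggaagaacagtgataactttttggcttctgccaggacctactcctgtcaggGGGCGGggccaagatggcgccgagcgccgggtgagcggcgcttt
Gtf2h4: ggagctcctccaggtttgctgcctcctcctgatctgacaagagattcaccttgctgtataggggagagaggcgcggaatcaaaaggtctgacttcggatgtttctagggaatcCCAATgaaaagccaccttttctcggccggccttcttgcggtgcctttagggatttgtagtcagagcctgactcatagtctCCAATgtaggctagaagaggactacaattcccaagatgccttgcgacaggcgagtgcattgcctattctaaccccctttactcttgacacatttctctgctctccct
Polr2a and Taf13 carry TATAAA on the sense strand, starting at -33 and -32 from the start site. Polr2a has 3 GGGCGG matches, at -93, -70 and -55, and Taf13 has 1 at -9 with a CCAAT at -120. Gtf2h5 holds GGGCGG only on the reverse strand (CCGCCC at -68 and -55), Gtf2h3 at 10, and Taf6 at 6 together with a reverse TTTATA at -92. Gtf2h4 has CCAAT at -137 and -57 and neither of the other motifs in this window. On either strand, TATAAA occurred in 8 of the 37 promoters found for the 45 tested genes (21.6%) and in 6.31% of 8689 promoters of all tested genes. The 8 were those of Gtf2a2, Gtf2f1, Polr2a, Polr2c, Taf5, Taf6, Taf11 and Taf13. Under THZ1 in null cells Gtf2a2, Polr2a and Taf13 were called as rises and the others as falls. In heterozygous cells Gtf2a2, Gtf2f1, Polr2a and Taf13 were called as rises and the others were not called. CCAAT occurred in 35.1% of the 37 and 39.7% of all, and GGGCGG in 73.0% and 67.7%. A match is a string of letters and not a shown binding site.

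THZ1 was compared with DMSO in heterozygous cells to see the response with a Pkd1 allele present. Of the 45 genes 18 rose and 2 fell, where 22.4% of all tested genes were called, 12.2% as rises and 10.3% as falls. The median difference was 0.16 beside 0.01 for all tested genes. These calls leaned on the THZ1 libraries: the rises numbered 7 without THZ1 replicate 1 and 8 without replicate 2, and 11 with no filter on low values. The 5 rises called under all alternatives were Polr2a, Polr2j, Gtf2b, Gtf2h5 and Taf13. Of the 12 polymerase subunits 8 rose and none fell, and of the 7 tested genes of TFIIA, TFIIB, TFIIE and TFIIF 4 rose and none fell. Of the 13 TFIID TAFs 3 rose (Taf4, Taf9 and Taf13) and Taf8 fell.

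Polr2a (chromosome 11, 69733997 to 69758633) rose from 64.9 and 63.0 to 110.3 and 110.1 FPKM in heterozygous cells. That log2 difference of 0.78 ± 0.046 (adjusted p = 5.52e-06) was the fourth largest increase among 10731 genes. The other polymerase subunits that rose moved by 0.16 to 0.30. Taf13 (chromosome 3, 108571699 to 108582068) rose from 21.5 and 20.4 to 30.2 and 32.6 FPKM (0.56 ± 0.058, adjusted p = 0.000155). Gtf2h5 (chromosome 17, 6079828 to 6085488), the smallest TFIIH core subunit, rose from 34.7 and 32.3 to 46.9 and 43.1 FPKM (0.42 ± 0.056, adjusted p = 0.00067). Gtf2b, which places polymerase at the start site, was close behind, from 41.5 and 40.1 to 55.5 and 52.8 FPKM (0.40 ± 0.048, adjusted p = 0.000284). In each of the 4 genes every THZ1 library lay above every DMSO library, which the naming rule required of Polr2a, Taf13 and Gtf2h5. The share of all tested genes without overlap was not counted.

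Taf8 (chromosome 17, 47483364 to 47502321), a partner of Taf10, fell from 6.40 and 6.36 to 4.86 and 4.81 FPKM in heterozygous cells (-0.34 ± 0.073, adjusted p = 0.00731). That call was lost on leaving out either THZ1 library (adjusted p up to 0.0532). Polr2m (chromosome 9, 71478437 to 71485983) fell from 127 and 132 to 114 and 112 FPKM (-0.19 ± 0.040, adjusted p = 0.00606), a call lost without THZ1 replicate 2 (adjusted p = 0.0573). Tbp, at 13.6 and 15.0 FPKM under THZ1, overlapped its DMSO values (0.01 ± 0.066). Taf6 stood at 42.2 and 44.5 FPKM under DMSO and 40.1 and 38.9 under THZ1, Gtf2h3 at 13.9 and 14 and then 13.1 and 12.2, and Gtf2h4 at 13.4 and 13.3 and then 13 and 11.99. None of these 3 passed the test in the heterozygous line (limma, adjusted p = 0.0697, 0.236 and 0.33). Their THZ1 libraries lay below their DMSO libraries, but the share of all tested genes with such an order was not counted.

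**Figure D2:**
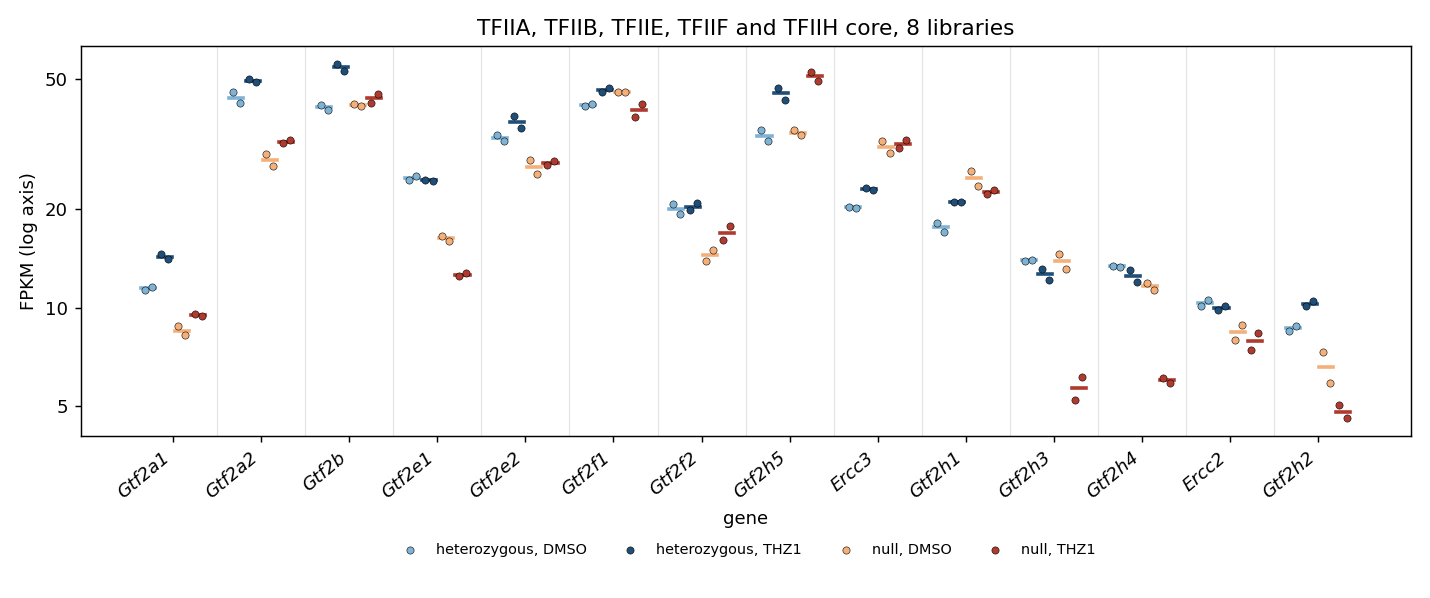
FPKM of the tested genes of TFIIA, TFIIB, TFIIE, TFIIF and the TFIIH core on a log axis, with a point for each of the 2 libraries of a group and a bar for their mean. In null cells under THZ1 Gtf2h3 (5.22 and 6.13 FPKM) and Gtf2h4 (6.12 and 5.89) lie below all other groups, while Gtf2h5 (52.4 and 49.2) lies above them.

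Within null cells THZ1 was again compared with DMSO. Of the 45 genes 16 rose and 20 fell, where 75.7% of all tested genes were called, 24.6% as rises and 51.1% as falls. The median difference was -0.12 beside -0.17 for all tested genes, and with median-of-ratios scaling, which moved the median of all genes to 0.03, the counts were 20 up and 16 down. Without null THZ1 replicate 2 they were 13 up and 20 down, and without null DMSO replicate 1 they were 15 and 21. Of the 13 TFIID TAFs 7 fell and 4 rose (53.8% and 30.8%), shares near those of all tested genes. The polymerase had 5 rises and 5 falls of 12, and the TFIIH core 3 falls and 1 rise of 7. Of the 5 polymerase falls, those of Polr2c, Polr2h and Polr2i kept their sign with each scaling, whereas those of Polr2e and Polr2j became small increases that did not pass with median-of-ratios scaling (0.0084 and 0.048).

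Polr2a rose from 47.0 and 51.2 to 122 and 125 FPKM in null cells (1.31 ± 0.046, adjusted p = 2.49e-10), rank 18 from the top among 10731 genes. Its level divided by the median of the other 11 subunits in the same library was 1.17 and 1.39 under DMSO and 2.75 in both THZ1 libraries. In heterozygous cells the same ratio went from 1.28 and 1.23 to 2.05 and 2.01. Such a ratio within a library does not depend on scaling between libraries, and it was not tested. Polr2b, the second largest subunit and with Polr2a a wall of the catalytic cleft, rose less, from 33.4 and 34.6 to 44.3 and 45.4 FPKM (0.39 ± 0.045, adjusted p = 5.27e-06). Polr2d (0.38 ± 0.061) and Polr2l (0.40 ± 0.050) rose by similar amounts, and Polr2g, the stalk partner of Polr2d, by 0.13 ± 0.048, a call lost with library-total scaling (0.04, adjusted p = 0.469). On the other side Polr2c (chromosome 8, 94857450 to 94864242), an assembly subunit that pairs with Polr2j, fell from 48.4 and 43.6 to 32.2 and 28.1 FPKM (-0.59 ± 0.064, adjusted p = 2.33e-06). Polr2m fell from 92.6 and 92.4 to 58.7 and 59.5 FPKM (-0.64 ± 0.040, adjusted p = 2.00e-08).

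The 5 subunits common to the 3 nuclear polymerases did not move as a block in null cells. Polr2h fell from 36.9 and 34.7 to 24.1 and 27.8 FPKM (-0.45 ± 0.062, adjusted p = 2.33e-05). Polr2l, a small zinc-binding subunit, rose from 25.6 and 27.1 to 36.1 and 34.3 FPKM (adjusted p = 8.63e-06). Polr2f (76.5 and 72.3, then 80.7 and 76.4 FPKM) overlapped between the groups, and Polr2k, another small zinc-binding subunit, did not pass (34.4 and 33.9, then 32.3 and 29.6 FPKM, adjusted p = 0.0519). In heterozygous cells Polr2e, Polr2f and Polr2l rose, while Polr2h (53.1 and 56.2, then 54.8 and 56.4 FPKM) and Polr2k (48.5 and 46.1, then 44.4 and 50.4) overlapped their DMSO libraries. Of the 7 subunits found only in polymerase II, 5 rose in heterozygous cells, and in null cells 4 rose (Polr2a, Polr2b, Polr2d and Polr2g) and 3 fell (Polr2c, Polr2i and Polr2j). Polr2i fell from 16.5 and 17.6 to 11.9 and 12.8 FPKM (-0.43 ± 0.066, adjusted p = 5.39e-05), and was the lowest subunit in all 4 groups.

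In TFIID, Taf13 rose from 29.1 and 27.4 to 47.0 and 50.8 FPKM in null cells (0.77 ± 0.058, adjusted p = 9.40e-08). Taf4b, a paralogue of Taf4 known from the gonads, rose from 2.04 and 2.29 to 3.88 and 4.28 FPKM (0.68 ± 0.087, adjusted p = 1.15e-05). Taf4 itself (0.52 ± 0.062) and Taf3, a Taf10 partner that reads a histone mark of active promoters (0.30 ± 0.073), also rose. Taf6 (chromosome 5, 138178617 to 138187451) fell from 30.2 and 29.5 to 13.9 and 13.6 FPKM (-1.06 ± 0.048, adjusted p = 1.64e-09). Tbp (chromosome 17, 15499888 to 15517427) fell from 14.4 and 13.6 to 7.69 and 8.0 FPKM (-0.76 ± 0.066, adjusted p = 3.58e-07). Further falls were Taf8 (-0.73), Taf7 (-0.69), Taf12 (-0.66), Taf2 (-0.57), Taf5 (-0.57) and Taf11 (-0.44). Taf2 takes part in recognising the initiator, and Taf5 is a WD-repeat subunit of the TFIID core. Taf1 (8.03 and 7.64, then 7.30 and 7.53 FPKM) and Taf10 (53.7 and 58.2, then 51.6 and 51.5) did not pass.

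**Figure D3:**
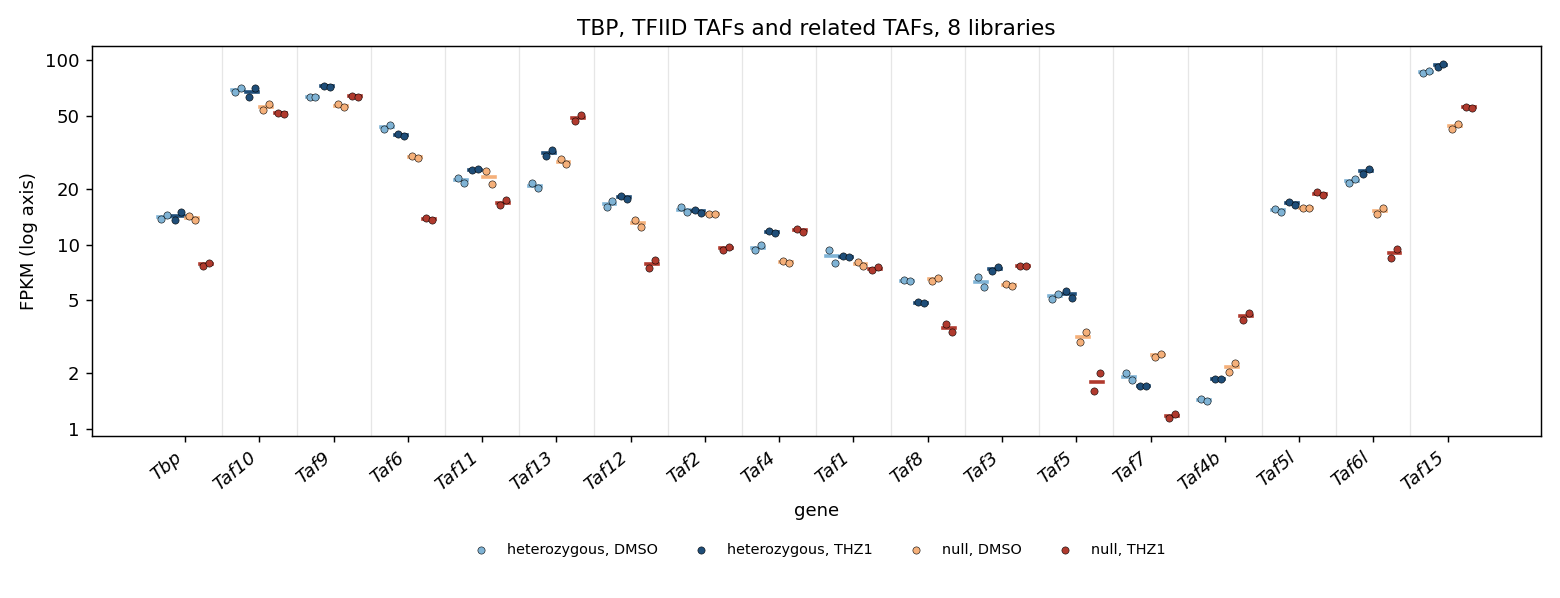
FPKM of Tbp, the 13 TFIID TAFs, Taf4b, the SAGA TAFs Taf5l and Taf6l, and Taf15 on a log axis, with a point for each of the 2 libraries of a group and a bar for their mean. Taf13 and Taf4b are highest and Taf6, Tbp, Taf12, Taf5 and Taf6l lowest in null cells under THZ1.

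The TFIIH core moved apart in null cells. Gtf2h3 (chromosome 5, 124579148 to 124597680) fell from 14.5 and 13.1 to 5.22 and 6.13 FPKM (-1.15 ± 0.078, adjusted p = 3.59e-08). Gtf2h4 (chromosome 17, 35667728 to 35673750) fell from 11.9 and 11.3 to 6.12 and 5.89 FPKM (-0.85 ± 0.064, adjusted p = 9.97e-08), and Gtf2h2, the partner of Gtf2h3, from 7.32 and 5.89 to 5.04 and 4.59 (-0.38 ± 0.088, adjusted p = 0.00152). The last call was lost with median-of-ratios scaling (-0.19, adjusted p = 0.0671). Gtf2h5, which binds Gtf2h4, rose from 34.8 and 33.6 to 52.4 and 49.2 FPKM (0.56 ± 0.056, adjusted p = 1.28e-06). The helicases Ercc2 (7.96 and 8.86, then 7.41 and 8.37 FPKM) and Ercc3 (32.3 and 29.6, then 30.6 and 32.5) overlapped between DMSO and THZ1. Among the other general factors, Gtf2a1, Gtf2a2 and Gtf2f2 rose by 0.14 to 0.21, calls lost with library-total scaling, while Gtf2e1, the larger TFIIE subunit, fell from 16.6 and 16 to 12.5 and 12.8 FPKM (-0.34 ± 0.051, adjusted p = 4.69e-05).

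Partner subunits were set against each other within each library, with no test. Taf11 relative to its histone-fold partner Taf13 was 1.07 in both heterozygous DMSO libraries, 0.836 and 0.793 under THZ1, 0.865 and 0.785 in null DMSO cells, and 0.349 and 0.343 in null THZ1 cells. Taf6 relative to Taf9 was 0.668 and 0.705, then 0.549 and 0.539 under THZ1 in the heterozygous line, and 0.524 and 0.528, then 0.217 and 0.214 in the null line. Taf12 relative to Taf4 went from 1.67 and 1.56 to 0.613 and 0.701 in null cells, and from 1.71 and 1.74 to 1.56 and 1.52 in heterozygous cells. For these 3 pairs the ratio under THZ1 lay below that under DMSO in either line. The partners of Taf10 diverged in both lines. Taf8 over Taf10 went from 0.119 and 0.113 to 0.072 and 0.065 in null cells. In heterozygous cells it went from 0.0944 and 0.0895 to 0.0766 and 0.0677. Taf3 over Taf10 went from 0.114 and 0.103 to 0.149 in both THZ1 libraries of null cells. In heterozygous cells it went from 0.0979 and 0.0826 to 0.114 and 0.107. By contrast, Gtf2a1 over Gtf2a2 stayed between 0.249 and 0.304 in all 8 libraries. Gtf2h3 and Gtf2h4 both fell in null cells, and their ratio ranged from 0.853 to 1.23 in all libraries. It too lay lower under THZ1 than under DMSO in either line. It went from 1.23 and 1.16 to 0.853 and 1.04 in null cells, and from 1.04 and 1.05 to 1.010 and 1.015 in heterozygous cells. Gtf2h4 over Gtf2h5 went from 0.341 and 0.338 to 0.117 and 0.120 in null cells. In heterozygous cells that ratio went from 0.3854 and 0.4125 to 0.2771 and 0.2781.

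**Figure D4:**
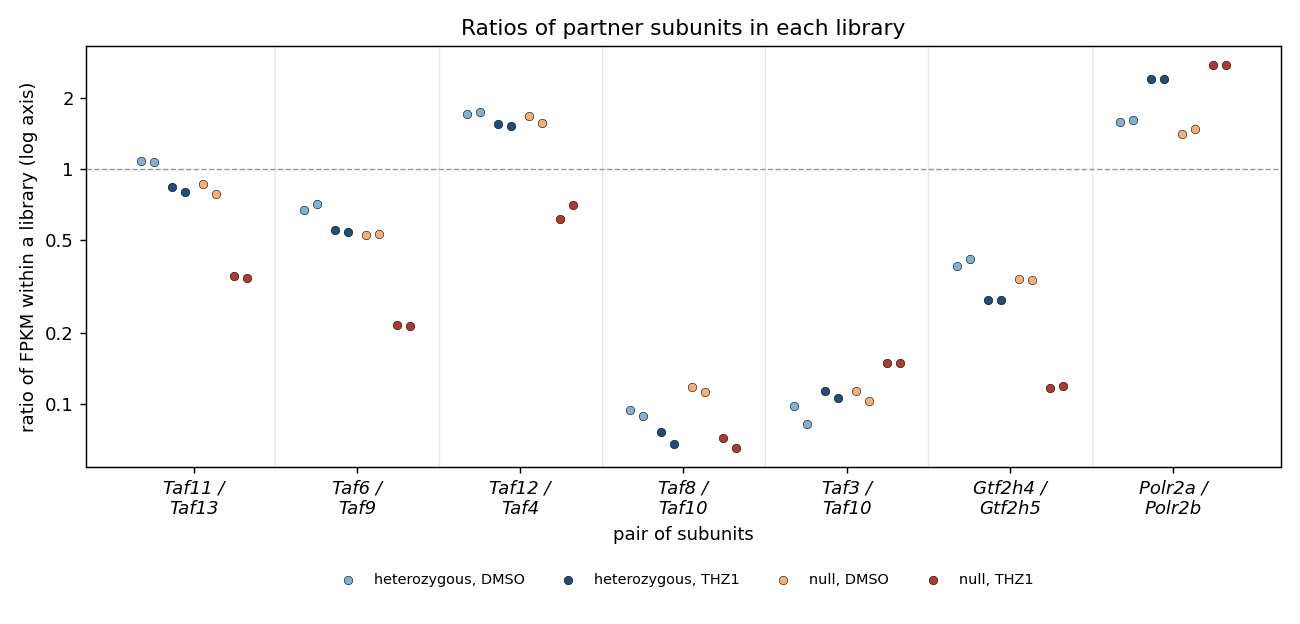
Ratio of the FPKM of partner subunits within each library on a log axis, with 2 points per group and a dashed line at 1. Taf11 over Taf13, Taf6 over Taf9, Taf12 over Taf4 and Gtf2h4 over Gtf2h5 are lowest in null cells under THZ1, where Polr2a over Polr2b is highest at 2.75.

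The SAGA TAFs, which replace Taf5 and Taf6 in that complex, went opposite ways. In null cells Taf5l rose from 15.9 and 15.7 to 19.2 and 18.6 FPKM (0.24 ± 0.053, adjusted p = 0.00104), while Taf6l (chromosome 19, 8774354 to 8786417) fell from 14.7 and 15.7 to 8.47 and 9.49 FPKM (-0.70 ± 0.065, adjusted p = 6.11e-07). Taf5l relative to Taf5 was 3.08 and 2.80 in heterozygous DMSO, 5.32 and 4.71 in null DMSO and 11.95 and 9.29 in null THZ1 libraries. Taf6l relative to Taf6 was 0.487 and 0.533 in null DMSO and 0.609 and 0.697 in null THZ1 libraries, and it also went up in heterozygous cells, from 0.511 and 0.510 to 0.607 and 0.660. Neither SAGA TAF passed in heterozygous cells (0.12 and 0.17). Taf15 rose in null cells from 42.6 and 45.4 to 56.2 and 55.2 FPKM (0.33 ± 0.045, adjusted p = 1.88e-05).

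The difference between the responses was tested as an interaction, null response minus heterozygous response. Of the 45 genes 6 had a higher and 22 a lower value in null cells, where 60.2% of all tested genes were called, 15.1% higher and 45.1% lower. The median was -0.15 beside -0.19 for all tested genes. Median-of-ratios scaling, which moved that median to 0.02, gave 14 higher and 16 lower, and upper-quartile scaling 10 and 22. The 15 genes that fell in null cells and were not called in heterozygous cells all had a called interaction. They were Tbp, Taf2, Taf5, Taf6, Taf7, Taf11, Taf12, Taf6l, Gtf2e1, Gtf2h2, Gtf2h3, Gtf2h4, Polr2c, Polr2h and Polr2i. The interaction is the difference of the responses they were picked by, which favours such calls. The share among all tested genes picked in this way was not counted. For Gtf2e1 the interaction was lost with median-of-ratios scaling (-0.10, adjusted p = 0.228). Of the 11 that rose in both lines 4 had a called interaction, namely Polr2a, Polr2b, Taf4 and Taf13. Of these the interaction of Polr2a kept its call under the 16 alternatives run, that of Taf13 (adjusted p = 0.0427) was lost in 8 (up to 0.176), and that of Polr2b was lost in 6 (up to 0.0765). Both losses include library-total scaling. Taf8 and Polr2m fell in both lines and further in null cells, though the interaction of Taf8 was lost with median-of-ratios scaling (-0.20, adjusted p = 0.113). Polr2e, Polr2j and Gtf2f1 rose in heterozygous and fell in null cells, but the null falls changed sign with median-of-ratios scaling.

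At the extremes Polr2a rose more in null cells by 0.54 ± 0.065 (adjusted p = 2.12e-05), Taf4b by 0.45 ± 0.12 (adjusted p = 0.0073) and Taf4 by 0.26 ± 0.088 (adjusted p = 0.0218). Taf4 stood at 9.33 and 9.97, then 11.9 and 11.6 FPKM in heterozygous cells, and at 8.17 and 7.98, then 12.2 and 11.8 in null cells, and its interaction was lost in 5 of the 8 fits that left out a library (adjusted p up to 0.0755). Taf4b stood at 1.46 and 1.41, then 1.86 and 1.87 in heterozygous cells. The lowest values were those of Gtf2h3 (-1.02 ± 0.11, adjusted p = 8.12e-06), Taf6 (-0.93 ± 0.068, adjusted p = 5.51e-07) and Taf6l (-0.87 ± 0.092, adjusted p = 7.15e-06). Taf6l stood at 21.5 and 22.7 FPKM under DMSO and 24.3 and 25.6 under THZ1 in heterozygous cells, where its rise did not pass the test (adjusted p = 0.0812). The interaction of Tbp was -0.77 ± 0.094 (adjusted p = 2.13e-05).

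**Figure D5:**
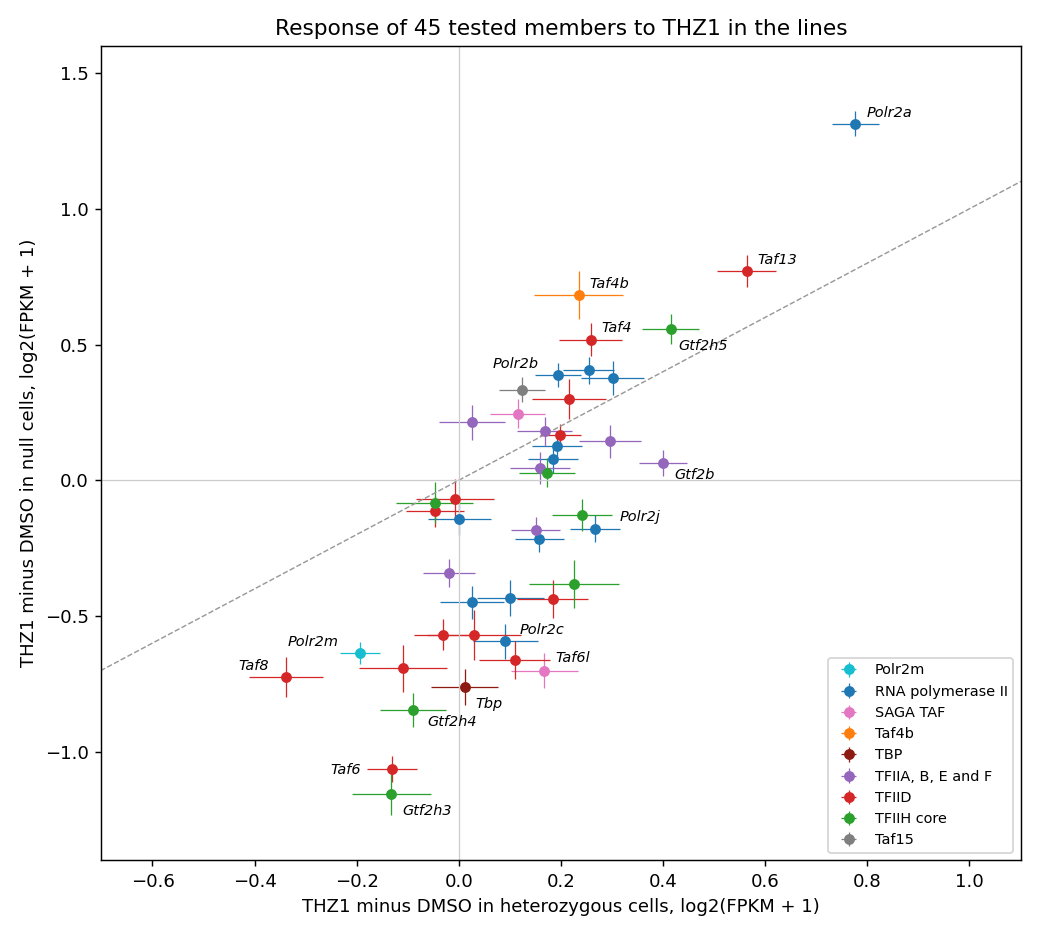
Response to THZ1 of the 45 tested genes in heterozygous (horizontal) and null cells (vertical) on the log2(FPKM + 1) scale, with limma's standard errors as bars and a dashed line of equal response. Polr2a (0.78 and 1.31) is farthest up, and Gtf2h3, Taf6, Gtf2h4 and Tbp lie near 0 horizontally and between -0.76 and -1.15 vertically.

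The lines were also compared with each other under THZ1. Of the 45 genes 7 were higher and 33 lower in null cells, where 83.2% of all tested genes were called, 25.1% higher and 58.1% lower. The median was -0.40 beside -0.28 for all tested genes, and median-of-ratios scaling, which moved the latter to -0.0048, gave 13 higher and 22 lower. All 7 tested genes of TFIIA, TFIIB, TFIIE and TFIIF and 10 of the 13 TFIID TAFs were lower. However, the values for Gtf2f1, Gtf2f2, Taf1 and Taf9 changed sign with median-of-ratios scaling, and Taf9 then passed as higher (0.13, adjusted p = 0.0152). That scaling also ended the calls of Gtf2b (-0.0027, adjusted p = 0.958), Gtf2e2 (adjusted p = 0.127), Taf7, Taf8 and Taf10, which left Gtf2a1, Gtf2a2, Gtf2e1, Taf2, Taf5, Taf6, Taf11 and Taf12 as lower. The largest decreases from heterozygous to null cells were those of Taf6, Taf6l and Taf5 (chromosome 19, 47067748 to 47083479). Taf6 stood at 40.1 and 38.9 FPKM in heterozygous and 13.9 and 13.6 in null cells (-1.45 ± 0.048, adjusted p = 3.19e-11). Taf6l stood at 24.3 and 25.6 against 8.47 and 9.49 (-1.38 ± 0.065, adjusted p = 5.38e-10). Taf5 stood at 5.64 and 5.12 FPKM in heterozygous and 1.61 and 2.0 in null cells (-1.19 ± 0.092, adjusted p = 6.27e-08), having been 5.08 and 5.41 against 2.98 and 3.34 under DMSO. With a pseudocount of 0.1 the value of Taf5 (-1.53) was slightly below that of Taf6 (-1.51). The largest increases were those of Taf4b (0.83 ± 0.087, adjusted p = 1.25e-06), Taf13 (0.62 ± 0.058, adjusted p = 3.63e-07) and Polr2d. Polr2d stood at 32.6 and 35.5 against 47.8 and 52.7 FPKM (0.55 ± 0.061, adjusted p = 2.29e-06). Polr2a, lower in null cells under DMSO, was higher under THZ1 (0.16 ± 0.046, adjusted p = 0.00547). The values of this comparison and of those in each line share libraries and are not independent of each other.

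Other genes of the pathway were counted from lists, beside which 24.6% of all tested genes rose and 51.1% fell in null cells (median -0.17), and 12.2% rose and 10.3% fell in heterozygous cells. The kinase part of TFIIH, which THZ1 binds, did not change by the test in heterozygous cells and fell in null cells in 3 of 3 genes. Cdk7 went from 8.30 and 7.43 to 5.07 and 5.29 FPKM there (-0.52 ± 0.080, adjusted p = 6.25e-05), Mnat1 from 17.1 and 18.04 to 11.9 and 12.6 (-0.48 ± 0.057, adjusted p = 5.68e-06) and Ccnh from 9.88 and 9.36 to 7.59 in both libraries (-0.31 ± 0.070, adjusted p = 0.00151). Of 23 genes for polymerase assembly, tail phosphatases and readers, and TBP regulation, 9 rose and 11 fell in null cells (39.1% and 47.8%), and 4 rose and 2 fell in heterozygous cells. Ssu72, a phosphatase of the polymerase tail, fell from 26.5 and 27.1 to 6.77 and 7.01 FPKM in null cells (-1.82 ± 0.050, adjusted p = 4.01e-11) and by 0.63 on the log2 scale in heterozygous cells. Rprd1a, which binds that tail, fell from 18.9 and 18.7 to 6.69 and 6.99 FPKM in null cells (-1.34 ± 0.061, adjusted p = 1.72e-09). It also fell in heterozygous cells (-0.58 ± 0.061, adjusted p = 0.000174).

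Of 32 tested elongation genes 14 rose and 10 fell in null cells, or 43.8% and 31.3% where all tested genes had 24.6% and 51.1%. In heterozygous cells 11 rose and 2 fell, or 34.4% and 6.25% beside 12.2% and 10.3%. Nelfe, a subunit of the pausing factor NELF, fell from 24.2 and 24.7 to 11.1 and 10.8 FPKM in null cells (-1.09 ± 0.054, adjusted p = 3.00e-09), and Supt5, a subunit of the factor DSIF, rose from 51.5 and 53.6 to 74.9 and 75.7 (0.51 ± 0.042, adjusted p = 2.03e-07). Nelfe also fell (-0.19, adjusted p = 0.0232) and Supt5 also rose (0.20, adjusted p = 0.00598) in heterozygous cells. Of 25 genes for polymerases I and III 20 fell in null cells (80.0%) and 1 rose, with a median of -0.56 beside -0.17 for all tested genes. Polr3d, at 11.8 and 11.7 FPKM under DMSO and 3.62 and 3.70 under THZ1 (-1.45 ± 0.066, adjusted p = 1.64e-09), and Polr3c, at 34.7 and 33.3 and then 17.9 and 17.2 (-0.92 ± 0.049, adjusted p = 5.30e-09), had the smallest adjusted p. Of 16 other SAGA genes 3 rose and 9 fell in null cells (18.8% and 56.3%, near the shares of all tested genes), with Atxn7l3 of its deubiquitinase module at 21.9 and 23.0 and then 8.91 and 9.91 FPKM (-1.17 ± 0.066, adjusted p = 8.39e-09) and Sf3b3, also a splicing factor, at 88.1 and 89.1 and then 53.7 and 56.6 (-0.67 ± 0.045, adjusted p = 3.51e-08). In heterozygous cells the 25 polymerase I and III genes showed 2 rises and 3 falls, and the 16 SAGA genes 2 and 2. Sf3b3 fell there too (-0.25, adjusted p = 0.00334), while Polr3d, Polr3c and Atxn7l3 did not pass.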

How the data were processed

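Each of the 8 deposited files holds FPKM per Entrez gene, computed by the authors. Per the submitters' processing notes Bowtie2, DESeq2 and the mm10 build were used, with no versions given. The quantifier is not given in the sources used here, nor are the gene annotation and the strand handling. TRIzol extraction and oligo dT selection came first, per the labels' protocols. Symbols and coordinates came from a RefSeq table of GRCm38.p6, which named 18592 of 18631 genes and left 39 without a symbol. Overlaps with other genes came from GENCODE for the same assembly.

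Values were taken as log2(FPKM + 1), without further scaling, for the 10731 genes with a mean of at least 1 FPKM. A difference on this scale understates the change of low genes. limma 3.58.1 in R 4.3.3 (trend in the prior, 1 mean per group, all 8 libraries) gave two-sided p-values. After Benjamini-Hochberg adjustment across the tested genes, those below 0.05 were called. Errors are limma's standard errors, and medians of lists carry no test. Depth was estimated from the steps of low FPKM values, and no counts were recovered. Other settings were 3 scalings, another pseudocount, other filters, other fits, a replicate block and leaving out each library.

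The genes studied, the lists, the tests and the naming rule were chosen with earlier results of these data known. Values in every library were given for Polr2a, Tbp and, in each comparison, the 3 called members that increased most and the 3 that decreased most, provided that their groups did not overlap (for the difference of responses, the 3 largest values each way). Pkd1, Cdk7, Ccnh, Mnat1 and 2 genes per pathway list, by smallest adjusted p for THZ1 in null cells, were also named. Other genes are named to account for every member of a complex. Polr1f, Polr1g and Polr1h of the polymerase I and III list were not matched by symbol and are not analysed here.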

Additional observations from a re-analysis of the deposited data

Results flagged for a closer look

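By limma's interaction test, with Benjamini-Hochberg adjustment over all genes, the responses to THZ1 differed between the lines for 28 of the 45 tested genes. That share, 62.2%, was near the 60.2% called among all tested genes. Values are the null minus the heterozygous response on the log2 scale. In TFIID they were -0.932 for Taf6, -0.771 for Taf12, -0.621 for Taf11, -0.601 for Taf5, -0.583 for Taf7, -0.538 for Taf2, -0.386 for Taf8, 0.208 for Taf13 and 0.260 for Taf4, and Tbp stood at -0.772. In the polymerase they were -0.684 for Polr2c, -0.535 for Polr2i, -0.476 for Polr2h, -0.444 for Polr2j, -0.376 for Polr2e, 0.194 for Polr2b and 0.536 for Polr2a, beside -0.443 for Polr2m. TFIIH core genes had -1.02 for Gtf2h3, -0.757 for Gtf2h4, -0.607 for Gtf2h2 and -0.369 for Gtf2h1. Other general factors had -0.336 for Gtf2b, -0.334 for Gtf2f1 and -0.323 for Gtf2e1. Of the related TAFs, Taf6l had -0.870, Taf15 0.211 and Taf4b 0.448. With median-of-ratios scaling the calls of Taf8, Polr2e, Gtf2h1, Gtf2b, Gtf2f1 and Gtf2e1 were lost. Under other alternatives the calls of Taf13 were lost in 8 of 16, of Polr2b in 6, of Taf4 in 5 and of Taf15 in 2, so that 2 of the 6 higher calls, Polr2a and Taf4b, were kept in each alternative that tested them. Gtf2h2, at -0.607, kept its call under all alternatives run although its fall within null cells did not.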

How the results depend on the processing

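Of 3765 values of single genes under the 17 alternatives, 3536 kept their side of the threshold without reversing a call, 160 lost a call, 57 gained one and 12 reversed. A change of sign was counted as reversed only where at least 1 of the values compared was called. The 3536 therefore include changes of sign, as for Ercc2 with THZ1 in null cells (-0.082, then 0.12 with median-of-ratios scaling). With median-of-ratios scaling the reversed values were, for THZ1 in null cells, Polr2j 0.048, Polr2e 0.0084 and Gtf2f1 0.041, for the difference of responses Taf9 0.20, and for the lines under THZ1 Taf9 0.13, Polr2b 0.27, Taf1 0.090, Polr2l 0.21, Polr2g 0.079, Gtf2f2 0.044 and Gtf2f1 0.10. Among them Taf9 passed as higher for the difference of responses (adjusted p = 0.0108). Taf9, Polr2b and Polr2l did so for the lines under THZ1 (adjusted p = 0.0152, 0.000125 and 0.00347). Upper-quartile scaling reversed Polr2b in the last comparison (0.14). That scaling and median-of-ratios scaling gave 10 and 14 genes with a higher response in null cells in place of 6, and 11 and 13 genes higher in null cells under THZ1 in place of 7. The same scaling by median of ratios moved the median of all genes from -0.17 to 0.03 for THZ1 in null cells, and the share of rises among called genes from 32.6% to 52.5%. That share went from 25.1% to 52.6% for the difference of responses and from 30.1% to 49.6% for the lines under THZ1. Library totals took it from 54.3% to 33.6% for THZ1 in heterozygous cells. Without a filter on low values 11 genes rose there in place of 18. Leaving out each library gave 7 to 19 rises and 0 to 2 falls in heterozygous cells, the fewest rises without THZ1 replicate 1 and no fall without replicate 2, and 2 to 6 genes with a higher response in null cells, with 2 without heterozygous THZ1 replicate 1. The arm left with 1 library was assumed to vary like the other groups. The cause of these changes was not tested. With the replicate number as a block the counts higher and lower were 7 and 28 for the lines under DMSO, 20 and 2 for THZ1 in heterozygous cells, 15 and 21 in null cells, 6 and 22 for the difference of responses and 7 and 33 for the lines under THZ1. The labels do not say that equal numbers mark shared cultures, and the correlation of replicate deviations between groups ran from -0.0936 to 0.139. FPKM keeps no counts, so intervals of counting error are not given.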
